A study of Mus musculus with 45 samples.

Results

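The squamous differentiation genes described here are 9 mouse genes, Krt6a, Krt10, Krt16, Sprr1a, Sprr1b, Ivl, Krtdap, Sbsn and Calml3, out of 18820 genes with a probe set of their own on the array. They were chosen by name, with earlier results of these data known, and each is represented by its only probe set that carries a single gene symbol. Values are log2 expression after RMA, the array normalization that puts all arrays on a common distribution, so a difference of 1 is a doubling. They were measured in 45 mammary tumours that grew from BALB/c mammary fragments lacking the tumour suppressor gene Trp53. The hosts were wild-type BALB/c females aged 10 weeks, transplanted in the inguinal mammary fat pads, which had been cleared of their own epithelium when the mice were 3 weeks old. There were 18 tumours from sham-irradiated hosts, 9 from hosts given 10 cGy of silicon (Si) ions, 10 at 30 cGy and 8 at 80 cGy. Only the hosts were irradiated, 3 days before the transplant, and hosts were followed for 600 days, with tumours removed at a size of 1 cm3. Both donor and host tissue can be in a tumour sample, and Trp53 itself was not analysed here because no probe set carried its symbol alone. The labels do not say whether 2 tumours shared a host, so p-values measure the spread between these tumours.

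In stratified epithelium such as the epidermis, basal cells carry the keratins Krt5 and Krt14, and cells that leave the basal layer switch on other keratins and then build a cornified envelope, a shell of proteins cross-linked by transglutaminases beneath the cell membrane. The mammary gland is a simple bilayered epithelium and does not normally cornify, but mammary carcinomas of mouse and human can contain areas of squamous differentiation. Krt6a and Krt16 are keratins of wounded and proliferating keratinocytes, and Krt10 is the keratin of the first suprabasal layers. Ivl (involucrin), Sprr1a and Sprr1b (small proline-rich proteins) are envelope precursors, Sbsn (suprabasin) and Krtdap (keratinocyte differentiation-associated protein) are secreted products of suprabasal cells, and Calml3 encodes a calmodulin-like protein described in human epithelia.

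Several of these genes are neighbours in the genome. Sprr1b, Sprr1a and Ivl lie on chromosome 3 in the epidermal differentiation complex, Sbsn and Krtdap lie on chromosome 7 on either side of Dmkn, Krt10 and Krt16 lie in the type I keratin cluster of chromosome 11, Krt6a lies in the type II cluster of chromosome 15, and Calml3 lies on chromosome 13. RefSeq promoter windows of the build GRCm38.p6, from 250 bases before to 50 bases after the start, were found for 6 of the 9 genes. The 150 bases just before each start are shown, 5' to 3' on the gene's strand, because these genes were high in the same tumours. Capitals mark TGANTCA, a loose form of the motif bound by AP-1 (Fos and Jun) factors, which reads the same on both strands.
Sprr1a: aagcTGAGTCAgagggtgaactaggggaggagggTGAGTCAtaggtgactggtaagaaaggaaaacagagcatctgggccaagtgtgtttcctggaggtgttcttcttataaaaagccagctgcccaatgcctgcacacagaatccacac
Sprr1b: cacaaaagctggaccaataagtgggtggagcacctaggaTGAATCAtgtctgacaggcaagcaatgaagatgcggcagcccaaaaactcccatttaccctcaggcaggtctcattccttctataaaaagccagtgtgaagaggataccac
Ivl: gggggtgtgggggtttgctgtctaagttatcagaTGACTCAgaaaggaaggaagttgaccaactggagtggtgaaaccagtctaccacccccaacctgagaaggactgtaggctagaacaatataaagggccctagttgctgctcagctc
Sbsn: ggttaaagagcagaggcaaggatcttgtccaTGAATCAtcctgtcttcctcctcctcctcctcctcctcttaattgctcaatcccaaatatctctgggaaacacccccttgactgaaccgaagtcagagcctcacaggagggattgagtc
Krtdap: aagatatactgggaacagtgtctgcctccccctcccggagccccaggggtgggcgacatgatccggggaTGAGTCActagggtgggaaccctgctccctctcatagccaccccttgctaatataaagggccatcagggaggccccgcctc
Krt10: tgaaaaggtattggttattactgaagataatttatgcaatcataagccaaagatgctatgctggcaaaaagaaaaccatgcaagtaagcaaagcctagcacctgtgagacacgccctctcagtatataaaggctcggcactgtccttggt
The stretches are chr3:92485882-92486031 on the minus strand for Sprr1a, chr3:92438780-92438929 minus for Sprr1b, chr3:92573736-92573885 minus for Ivl, chr7:30751321-30751470 plus for Sbsn, chr7:30787755-30787904 plus for Krtdap and chr11:99389365-99389514 minus for Krt10. In the full windows TGANTCA was found in 5 of 6, against 2565 of all 32851 windows of the same length (7.80%). The match began 111 bases before the start in Sprr1b, 116 in Ivl, 81 in Krtdap, 146 and 116 in Sprr1a and 119 in Sbsn. A second match in Sbsn began 6 bases before the start and ran past the stretch shown, and the window of Krt10 held none. TATAAA, searched on both strands, was in 5 of 6 windows, all but that of Sbsn, against 13.6% of all windows. CACCC, also searched on both strands, was in 6 of 6 windows against 57.5% of all windows, and 1 of its matches in Sprr1a overlapped a TGANTCA match. The match in Sprr1b and the match 119 bases before the start in Sbsn read TGAATCA. The motifs were chosen after these sequences were seen, so the shares set side by side are a description and no test. These matches describe the letters of the windows, and binding was not measured.

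Array medians lay between 5.48 and 5.80. A gene was tested where it exceeded the median of the whole table, 5.67, in at least 8 tumours, which 12123 genes did. Of the 9 squamous genes 7 passed. Krtdap exceeded that level in 3 tumours and Ivl in 5, so both were tested without the filter, among all 18820 genes. The most alike arrays were those of sham replicate 16 and 10 cGy replicate 1 (r = 0.978 over the 12123 tested genes). They had the lowest means of the 9 genes and differed in Sprr1a, at 8.14 and 5.11.

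Most tumours had low levels of these genes and a few had very high ones. A gene is called high in a tumour here where its log2 value was 2 or more above that gene's median over the 45 tumours. By this measure 28 of the 45 tumours had none of the 9 genes high, 17 had at least 1, 6 had 5 or more and 3 had 8 or 9. The 3 tumours were 10 cGy replicate 5 (9 genes), sham replicate 8 (9 genes) and sham replicate 3 (8 genes). For comparison, 17.1% of all 18820 genes were high in at least 1 tumour, and 0.542% (102 genes) were high in each of these 3. In single tumours, 2.39% of all genes were high in 10 cGy replicate 5, 2.43% in sham replicate 3 and 1.11% in sham replicate 8. The 9 genes also varied more than most: their SDs over the tumours ran from 1.11 for Ivl to 2.36 for Krt6a, where the median SD of the tested genes was 0.434 and the 95th percentile was 1.27. In bulk tissue, fewer cells that express a gene and less of its RNA per cell cannot be told apart.

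**Figure D1:**
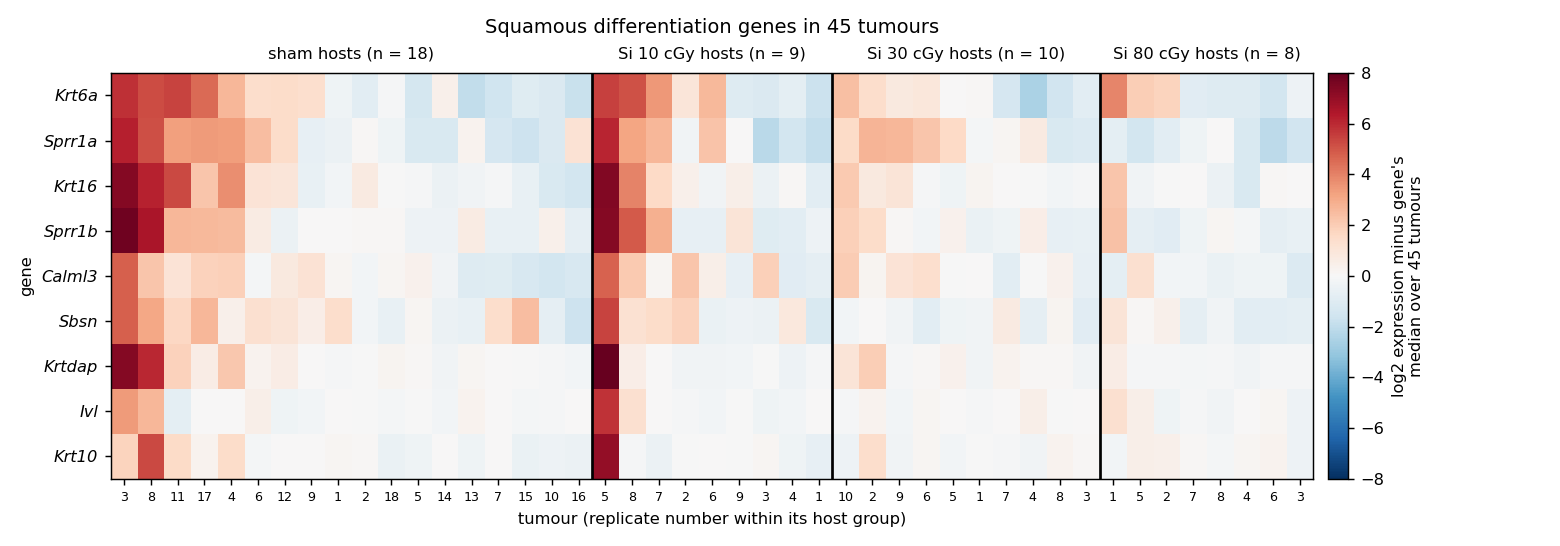
Each column is a tumour, grouped by host and ordered within its group by the mean of the 9 genes, and each row is a gene; colour gives the log2 value minus that gene's median over the 45 tumours. Dark red columns mark sham replicates 3 and 8 and 10 cGy replicate 5, Krt6a and Sprr1a are red in more tumours than the other genes, and no 30 cGy or 80 cGy tumour has more than 3 genes at 2 or above.

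Krt6a had a median of 5.82 and was high in 11 tumours. It stood at 11.68 in sham replicate 3, 11.27 in 10 cGy replicate 5, 11.21 in sham replicate 11, 11.05 in sham replicate 8, 10.94 in 10 cGy replicate 8 and 10.33 in sham replicate 17. Its levels therefore formed a broad slope in which the 3 leading tumours were not set apart from the next 3. The other 5 high tumours were 80 cGy replicate 1 at 9.74, 10 cGy replicate 7 at 9.30, sham replicate 4 and 10 cGy replicate 6 at 8.44 each, and 30 cGy replicate 10 at 8.25. Krt6a is closely related to its neighbours Krt6b and Gm5478 on chromosome 15, so signal shared between their probe sets could not be separated.

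Krt16, the usual partner of Krt6 proteins in filaments, had a median of 4.23 and was high in 9 tumours. Its values were 11.61 in 10 cGy replicate 5, 11.57 in sham replicate 3, 10.41 in sham replicate 8, 9.53 in sham replicate 11, 8.18 in 10 cGy replicate 8 and 7.93 in sham replicate 4. All 9 of these tumours also had Krt6a high, while 10 cGy replicates 6 and 7 had Krt6a high and Krt16 at 3.96 and 5.80, under its threshold of 6.23.

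Krt10 had a much narrower distribution. It stood at 12.48 in 10 cGy replicate 5 and 10.69 in sham replicate 8, and these 2 tumours alone passed its threshold of 7.42. Sham replicate 3, among the highest for every other gene, had Krt10 at 7.18, just under that threshold. In the other 42 tumours Krt10 ran from 4.79 to 6.94. Krt1, the keratin that pairs with Krt10, had a median of 4.95 and stood at 13.40, 10.95 and 7.17 in 10 cGy replicate 5, sham replicate 8 and sham replicate 3.

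Sprr1a had a median of 6.99 and was high in 13 tumours, the most of the 9 genes. Its levels were 13.18 in sham replicate 3, 13.08 in 10 cGy replicate 5 and 12.18 in sham replicate 8, and the next tumour, sham replicate 17, stood at 10.39. Sprr1a was the only one of the 9 genes high in sham replicate 6 (9.45) and in 30 cGy replicates 2, 6 and 9 (9.69, 9.20 and 9.67). It was also the gene with the highest count of high tumours at 30 cGy, 3 of 10. Sprr1b had a median of 4.87 and was high in 9 tumours, with 12.68, 12.25 and 11.40 in the leading 3 and 9.80 in 10 cGy replicate 8. Sprr3, which lies between the pair on the chromosome, ran only from 3.02 to 4.03 over the 45 tumours.

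Ivl had a median of 4.72 and was high in the 3 leading tumours only, at 10.51 in 10 cGy replicate 5, 8.16 in sham replicate 3 and 7.38 in sham replicate 8. The other 42 tumours reached at most 6.01, in 80 cGy replicate 1. Ivl and Krt10 both had their highest value in 10 cGy replicate 5, but sham replicate 3 ranked above sham replicate 8 for Ivl and below it for Krt10.

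Krtdap showed the clearest gap. It stood at 11.79 in 10 cGy replicate 5, 10.50 in sham replicate 3 and 9.21 in sham replicate 8, against a median of 3.18, and the fourth tumour, sham replicate 4, stood at 5.33. The gap of 3.88 between the third and the fourth tumour was the widest step between any neighbouring values of the 9 genes. Sbsn, whose gene is separated from Krtdap by Dmkn, behaved differently, with a median of 6.18 and a gradual spread. Its high tumours were 10 cGy replicate 5 at 11.55, sham replicate 3 at 10.93, sham replicate 8 at 9.28, sham replicate 17 at 8.83 and sham replicate 15 at 8.64. Sham replicate 15 had no other squamous gene high, and its Krt6a and Krtdap stood at 4.82 and 3.15.

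Calml3 had a median of 5.38 and stood at 10.17 in sham replicate 3 and 10.13 in 10 cGy replicate 5. The next values lay 2.55 lower, at 7.58 in sham replicate 8 and 7.57 in 10 cGy replicate 2, so that Calml3 separated 2 tumours rather than 3. It was also high in 10 cGy replicate 8 (7.48) and 30 cGy replicate 10 (7.39), and in 10 cGy replicate 2 it was the only squamous gene that was high.

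Behind the 3 leading tumours came 4 with part of the set. 10 cGy replicate 8 and sham replicates 4, 11 and 17 each had Krt6a, Krt16, Sprr1a and Sprr1b high, and in addition Calml3 in 10 cGy replicate 8, Krtdap in sham replicate 4 and Sbsn in sham replicate 17. By comparison 1%, 1.11%, 1.63% and 1.31% of all genes were high in these 4 tumours, in that order. None of the 4 had Krt10 or Ivl high, with Krt10 between 5.31 and 6.94 and Ivl between 3.94 and 5.99. The next tumours were 10 cGy replicate 7, 30 cGy replicate 10 and 80 cGy replicate 1, with 3 genes high each. In 80 cGy replicate 1 these were Krt6a at 9.74, Krt16 at 6.48 and Sprr1b at 7.22.

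The 9 genes were correlated with each other over the 45 tumours, with Pearson's r between 0.55 and 0.93 (median 0.74) in the 36 pairs. These values are descriptive: the points share 1 normalization, and the 3 leading tumours carry much of them. Spearman's rho had a median of 0.45, and without the 3 tumours Pearson's r ran from -0.11 to 0.81 with a median of 0.43. Krt16 and Sprr1b were the most alike pair at r = 0.93, and still 0.81 in the other 42 tumours. Krt6a and Krt16 went from 0.84 to 0.79. By contrast Krtdap and Ivl went from 0.89 to 0.08, Krt10 and Ivl from 0.82 to -0.11, and Sbsn and Ivl from 0.71 to 0.07.

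The tumours with high squamous genes also had high basal keratins. Krt5, which ran from 4.93 to 13.32 with a median of 9.29, stood at 13.32 in sham replicate 3, 13.10 in 10 cGy replicate 5 and 13.01 in sham replicate 8, and between 12.36 and 13.21 in the 4 tumours that followed. Krt14 lay between 11.36 and 12.88 in these 7 tumours, against a median of 9.56. Trp63, which encodes the transcription factor of basal epithelium p63, lay between 9.25 and 10.60 in them, against a median of 7.29. The basal keratinocyte and myoepithelial list did not follow as a whole. In 10 cGy replicate 5, sham replicate 3 and sham replicate 8, Col17a1 stood at 9.94, 10.17 and 9.81 against a median of 6.33. In the same order Itga6 stood at 10.40, 10.61 and 11.72 against 11.13, and Acta2 at 10.44, 11.80 and 12.54 against 11.78. A high Krt5 did not come with the squamous genes in every tumour. Of the 10 tumours with Krt5 at 12.36 or above, 6 had 5 or more squamous genes high, 3 had 1 to 4 and 1 had none (sham replicate 12). The level of 12.36 was read from these data, as the lowest Krt5 value among the 6. Of the 35 tumours below it, 8 had between 1 and 3 high. Among these was 80 cGy replicate 1, which had Krt6a, Krt16 and Sprr1b high with Krt5 at 7.08, below its median, and Krt14 at 11.42, above its median.

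**Figure D2:**
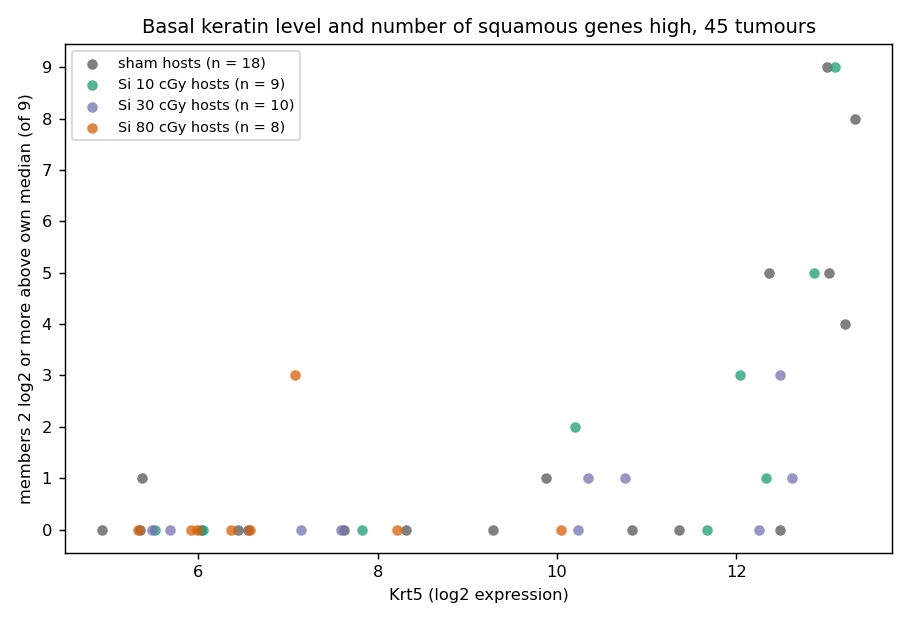
The horizontal axis gives the log2 expression of the basal keratin Krt5 and the vertical axis the number of the 9 squamous genes that were 2 log2 or more above their own median; each point is a tumour, coloured by host group. The lowest Krt5 level among the 6 tumours with 5 or more genes high is 12.36, and 4 tumours at or above that level have fewer.

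Luminal genes were not uniformly low in these tumours. Krt8, a keratin of luminal cells with a median of 12.31, stood at 8.94 in sham replicate 3 and 10.47 in 10 cGy replicate 5, ranks 43 and 41 of 45, but at 12.42 in sham replicate 8 and 13.10 in sham replicate 17. Cdh1, which encodes E-cadherin, lay between 10.54 and 11.62 in all 7, close to its median of 10.75. None of the 9 measured proliferation genes was high in any of the 45 tumours, so this count does not set the 7 apart.

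Of the 41 listed cornified envelope genes with a probe set, other than the 9, 34 were high in 10 cGy replicate 5, 27 in sham replicate 3 and 18 in sham replicate 8, and between 2 and 4 in the next 4 tumours. Cnfn (cornifelin) stood at 12.22, 11.88 and 9.34 in the 3, against a median of 4.91. Lor (loricrin), a major envelope protein of the outermost living layers, stood at 11.31 in 10 cGy replicate 5 but at 6.70 in sham replicate 8 and 5.71 in sham replicate 3, with a median of 4.70. Flg2, a filaggrin-like protein of cornifying cells, stood at 9.17 in 10 cGy replicate 5, 4.17 in sham replicate 3 and 4.11 in sham replicate 8. Sprr2d went the other way, at 11.98 in sham replicate 3, 11.46 in 10 cGy replicate 5 and 7.59 in sham replicate 8. All 18 of the envelope genes high in sham replicate 8, and 26 of the 27 in sham replicate 3, were among the 34 high in 10 cGy replicate 5.

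Among 25 listed epidermal proteases and inhibitors, 18, 14 and 12 were high in 10 cGy replicate 5, sham replicate 3 and sham replicate 8. Klk7, a kallikrein protease of skin shedding, stood at 12.73, 10.89 and 10.92, and Spink5, an inhibitor of such proteases, at 11.07, 9.82 and 7.84. Of 17 genes of the epidermal lipid barrier, 11, 10 and 5 were high, among them Abca12, a lipid transporter, at 10.96, 9.92 and 8.32. Of 14 genes of desmosomes and corneodesmosomes, the junctions between keratinocytes, 7, 7 and 5 were high, and Dsg3 (desmoglein 3) stood at 11.31, 11.70 and 10.15. Of 27 listed regulators 9, 5 and 3 were high, with Ovol1 at 10.14, 9.23 and 8.17 against a median of 5.88 and Grhl3 at 9.91, 10.11 and 8.51 against 6.72. Of 16 other differentiation keratins 7, 5 and 5 were high, and of 8 S100 and calmodulin-like genes 5, 5 and 2, where Calm4, beside Calml3 on chromosome 13, stood at 9.99, 7.70 and 6.95.

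**Figure D3:**
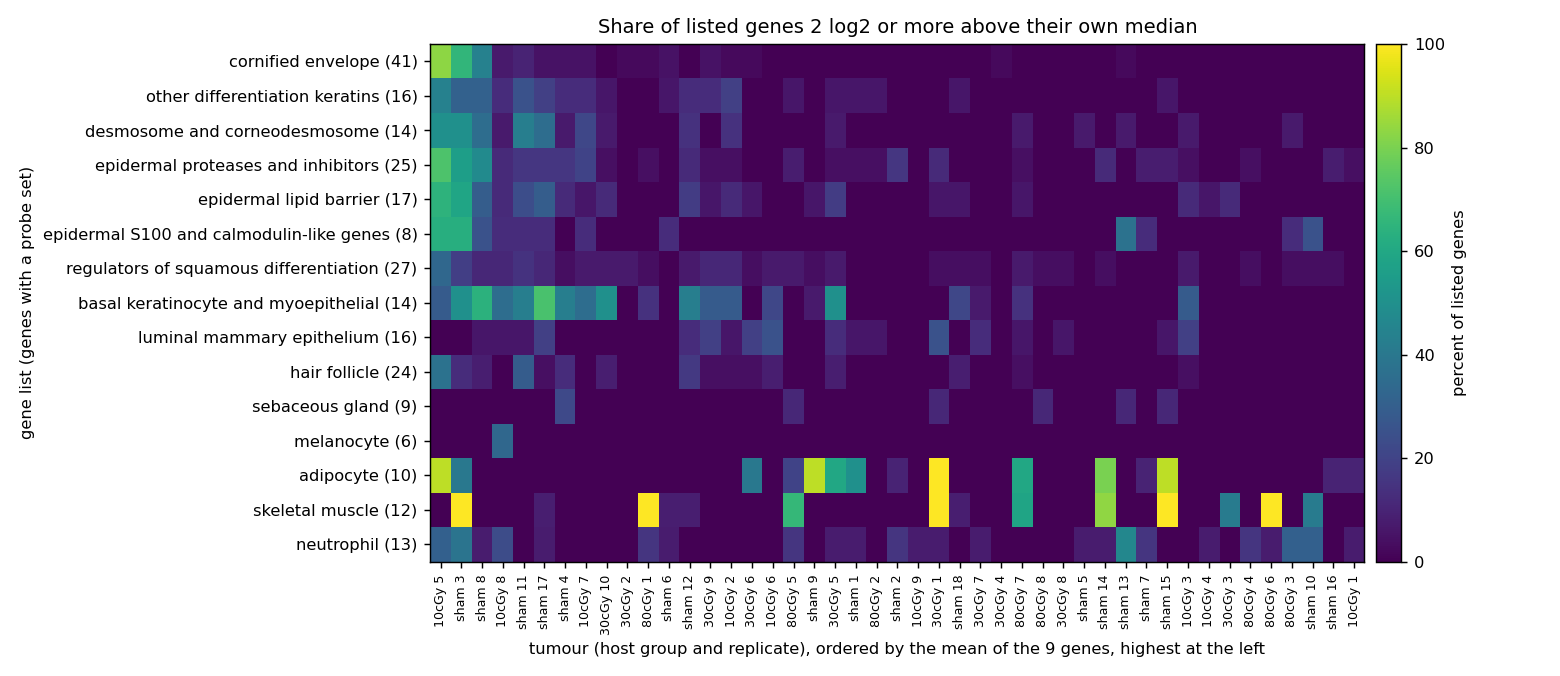
Columns are the 45 tumours from the highest to the lowest mean of the 9 genes, rows are gene lists with the number of measured genes, and colour gives the percent of listed genes that were 2 log2 or more above their own median. The cornified envelope list reaches 82.9% in 10 cGy replicate 5 at the left edge, while the muscle and adipocyte lists reach 100% in tumours far to the right as well.

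Genes of other tissues were high in some of the same tumours. In 10 cGy replicate 5, 9 of 24 hair follicle genes were high, and the inner root sheath keratins Krt25, Krt27, Krt28 and Krt71 stood at 10.35, 10.10, 10.21 and 8.27, while none of 10 measured keratins of the hair shaft and nail exceeded its median by more than 0.81 and none of 9 sebaceous genes was high. In sham replicate 11, 7 of 24 were high, with Krt25 at 9.58 and Krt71 at 10.03, and in sham replicates 3 and 8 there were 3 and 2, with Krt25 at 3.82 and 5.19. In sham replicate 3, all 12 skeletal muscle genes were high, including Myh4 at 11.40, as they were in 80 cGy replicate 1. In 10 cGy replicate 5, 9 of 10 adipocyte genes were high, Adipoq at 7.83 among them, and in sham replicate 3, 4 were. S100a8 and S100a9, calcium-binding proteins of neutrophils and of stressed keratinocytes, stood at 10.99 and 10.59 in 10 cGy replicate 5 and at 10.98 and 11.19 in sham replicate 3, with 4 and 5 of 13 listed neutrophil genes high. In sham replicate 8, no muscle or adipocyte gene was high and 1 neutrophil gene was. At least 50% of the muscle list was high in 8 tumours, of which 5 had no squamous gene high, and at least 50% of the adipocyte list in 8, of which 6 had none. No tumour had 50% or more of the hair follicle list high. Of 6 melanocyte genes none was high in the 3 leading tumours, and 2 were in 10 cGy replicate 8, where Dct stood at 9.95. The part of host skin, fat or muscle in the squamous values was not tested.

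Over all tumours, the tested genes most like the squamous set were found by Pearson's r with the mean of the 9 genes, again as a description over 45 tumours. They were Cnfn at 0.94, Dmkn (dermokine), Spink5, Bpifc and Klk7 at 0.93 each, Aqp3 (the water and glycerol channel of keratinocytes) and Krt6b at 0.92, then Ly6g6c, Pglyrp3, Crct1, Casp14 and Il22ra1 at 0.87 each. Over the 12116 other tested genes the median r was -0.09, the 95th percentile was 0.36 and 73 genes reached 0.70. Without the 3 leading tumours, Krt6b kept r = 0.87 and Dmkn 0.82, and Casp14 had 0.49. The nearest genes differed by member. Krt6a was most like Gm5478, Krt6b and Sfn (0.90, 0.88 and 0.87), Krtdap was most like Cnfn, Klk7 and Casp14 (0.97, 0.96 and 0.91), and Krt10 was most like Tchh (trichohyalin), Klk7 and Klk12 (0.89, 0.87 and 0.85). Calml3 was most like Il22ra1, Mab21l3 and Rapgefl1 (0.89, 0.84 and 0.84), and Sbsn was most like Dmkn, Bpifc and Krt80 (0.87, 0.83 and 0.80). For Krt16 these were Krt6b, Cnfn and Aqp3 (0.92, 0.91 and 0.89), for Sprr1b Cnfn, Aqp3 and Krt6b (0.91, 0.90 and 0.89), for Sprr1a Spink5, Bpifc and Dsc3 (0.85, 0.81 and 0.81), and for Ivl Casp14, Klk12 and Cnfn (0.93, 0.88 and 0.85). Without the 3 leading tumours the values of Ivl were 0.44, 0.21 and 0.04, and those of Krt10 were 0.62, 0.48 and 0.15. Those of Krt6a were 0.858, 0.835 and 0.819. The other members had values between 0.37 (Krtdap with Casp14) and 0.84 (Krt16 with Krt6b).

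Neighbouring genes followed the members in part. On chromosome 3, Sprr4, between Sprr1a and Ivl, had r = 0.90 with Ivl, and Lce6a and Lce1b, on the other side of Ivl beyond Smcp, had 0.87 and 0.86. Smcp, the first gene beside Ivl there, had 0.09, and Sprr3 had 0.13 with Ivl, 0.12 with Sprr1b and 0.04 with Sprr1a. Without the 3 leading tumours, Sprr4, Lce6a and Lce1b had 0.14, 0.475 and 0.18 with Ivl. On chromosome 7, Dmkn had r = 0.87 with Sbsn and 0.84 with Krtdap, while the genes just outside the trio, Gapdhs and Ffar2, had 0.25 with Sbsn and 0.05 with Krtdap. In the keratin clusters, Krt14 and Krt17, on either side of Krt16, had 0.72 and 0.69 with it, Krt5, beside Krt6a, had 0.75, and Krt28, beside Krt10, had 0.80, which was 0.22 without the 3 leading tumours. Without those tumours Krt14, Krt17 and Krt5 had 0.67, 0.64 and 0.70, and Dmkn had 0.715 with Sbsn and 0.585 with Krtdap.

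By host group, 4 of 18 tumours from sham hosts had 5 or more of the 9 genes high (22.2%, exact 95% binomial interval 6.4 to 47.6%), as had 2 of 9 at 10 cGy (22.2%, 2.8 to 60.0%), 0 of 10 at 30 cGy (up to 30.8%) and 0 of 8 at 80 cGy (up to 36.9%). The intervals cover each other widely. At least 1 gene was high in 7 sham tumours, 5 at 10 cGy, 4 at 30 cGy and 1 at 80 cGy. These counts move with the definition: with a value 1 above the median, 5 or more genes were high in 5, 3, 2 and 1 tumours of the 4 groups, and with 3 above the median in 2, 1, 0 and 0.

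**Figure D4:**
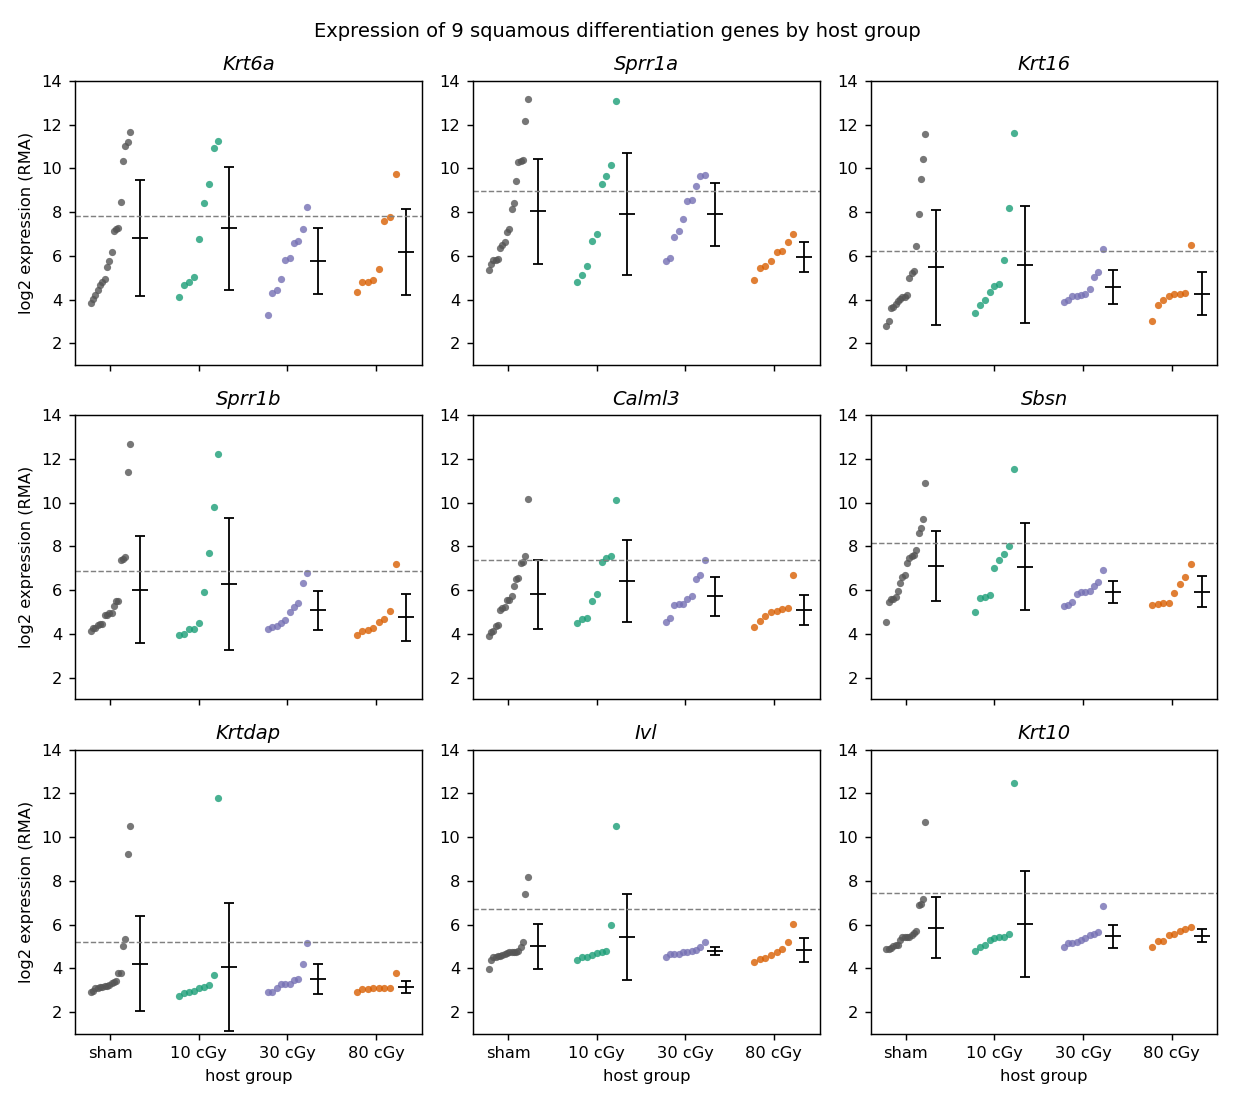
Each panel is a gene, each point a tumour and the vertical axis the log2 expression; bars give the mean and SD of the group (18, 9, 10 and 8 tumours), and the dashed line lies 2 above the gene's median. Every gene has its highest points in the sham and 10 cGy groups, and the bulk of all 4 groups overlaps.

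The test of host groups asks whether these genes differ in tumours that grew in irradiated hosts. With limma and Benjamini-Hochberg adjustment, 0 of 12123 genes had an adjusted p under 0.05 in any of the 6 comparisons (percent called 0), and 0 of the 7 tested squamous genes did. At an unadjusted p under 0.05, the counts of squamous genes were 0 of 7 for all Si hosts against sham, where 5.82% of all genes passed, and 0 of 7 at 10 cGy against 3.65%. They were 1 of 7 at 30 cGy (Sbsn) against 4.45% and 2 of 7 at 80 cGy (Sprr1a and Sbsn) against 6.97%. For any difference among the 4 groups and among the 3 doses the counts were 0 of 7, against 4.13% and 3.98%.

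Sprr1a in sham tumours had a lowest, median and highest value of 5.34, 7.17 and 13.18, and at 80 cGy 4.89, 5.96 and 6.99. All 8 tumours at 80 cGy thus lay under the sham median, and 1 of them lay below the lowest sham tumour. The means were 8.04 ± 2.40 (SD, n = 18 tumours) and 5.95 ± 0.68 (SD, n = 8), and the limma difference was -2.09 ± 0.87 (SE, 95% interval -3.84 to -0.33) with an adjusted p of 0.673. Without the 3 leading tumours it was -1.51 ± 0.69 with an adjusted p of 0.856, adjusted over all 18820 genes rather than the 12123 tested ones. At 30 cGy, where Sprr1a ran from 5.75 through 8.09 to 9.69, the difference from sham was -0.14 ± 0.81, and at 10 cGy, with 4.81, 7.02 and 13.08, it was -0.11 ± 0.84.

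Sbsn ran from 4.53 through 6.97 to 10.93 in sham tumours, from 4.98 through 7.02 to 11.55 at 10 cGy, from 5.28 through 5.91 to 6.90 at 30 cGy and from 5.33 through 5.65 to 7.22 at 80 cGy. Medians at 30 and 80 cGy were lower than in the other groups and the ranges overlapped. The limma difference from sham was -1.19 ± 0.54 at 30 cGy (95% interval -2.28 to -0.11, adjusted p = 0.990) and -1.17 ± 0.58 at 80 cGy (-2.34 to -0.002, adjusted p = 0.715), and -0.02 ± 0.56 at 10 cGy. For all Si hosts it was -0.80 ± 0.42 (adjusted p = 0.879), and -0.61 ± 0.30 without the 3 leading tumours.

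Krt6a ran from 3.83 through 5.97 to 11.68 in sham tumours, from 4.13 through 6.79 to 11.27 at 10 cGy, from 3.31 through 5.86 to 8.25 at 30 cGy and from 4.36 through 5.16 to 9.74 at 80 cGy. Its differences from sham were 0.44 ± 0.94, -1.07 ± 0.91 and -0.64 ± 0.98 in dose order, none larger than its error allows to tell from 0. Krt16 medians were 4.16, 4.63, 4.21 and 4.21 in sham, 10, 30 and 80 cGy tumours, with highest values of 11.57, 11.61, 6.32 and 6.48, and its differences were 0.12 ± 0.85, -0.91 ± 0.82 and -1.21 ± 0.88. The groups of Krt16 thus differed in their highest tumours more than in their medians. Sprr1b followed that form, with medians of 4.96, 4.49, 4.81 and 4.41, highest values of 12.68, 12.25, 6.80 and 7.22, and differences of 0.26 ± 0.85, -0.94 ± 0.82 and -1.27 ± 0.89.

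Krt10 medians were 5.43, 5.38, 5.33 and 5.54 in the 4 groups, and its highest values 10.69, 12.48, 6.85 and 5.87. Ivl medians were 4.71, 4.69, 4.76 and 4.69, and its highest values 8.16, 10.51, 5.19 and 6.01. Krtdap medians were 3.28, 3.10, 3.29 and 3.08, and its highest values 10.50, 11.79, 5.14 and 3.80. For these 3 genes the differences from sham lay between -1.06 ± 0.80 (Krtdap at 80 cGy) and 0.42 ± 0.45 (Ivl at 10 cGy). Calml3 had medians of 5.55, 5.84, 5.48 and 5.02, highest values of 10.17, 10.13, 7.39 and 6.68, and differences of 0.60 ± 0.56, -0.10 ± 0.54 and -0.72 ± 0.58.

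Side by side, the 9 differences from sham had a median of 0.19 at 10 cGy, -0.70 at 30 cGy and -1.06 at 80 cGy, where the median over all tested genes was 0.01, 0.00 and 0.03. All 9 were below 0 at 30 cGy and at 80 cGy, and 3 of 9 at 10 cGy, where 50.8%, 43.4% and 48.2% of all tested genes were. For all Si hosts 8 of 9 were, against 46.8% of all tested genes. Without the 3 leading tumours, 4 of 9 were below 0 at 30 cGy, 7 at 80 cGy, 4 at 10 cGy and 7 for all Si hosts, and the medians at 30 and 80 cGy were 0.00 and -0.35. These comparisons share the sham tumours, and the 9 genes move with the same few tumours, so the 9 signs are not separate pieces of evidence. At 10 cGy the differences of Krt6a, Krt10, Krt16, Sprr1b and Ivl changed sign without replicate 5, to -0.06, -0.61, -0.63, -0.48 and -0.22. That of Calml3 went from 0.60 to 0.14. Krt6a, Krt16 and Sprr1b also changed sign when 10 cGy replicate 8 alone was left out, and Krt16 when sham replicate 10 or 16 was. The SEs of the 7 tested genes were also wide, with a median of 0.62 in the comparison of all Si hosts where that of all genes was 0.13.

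**Figure D5:**
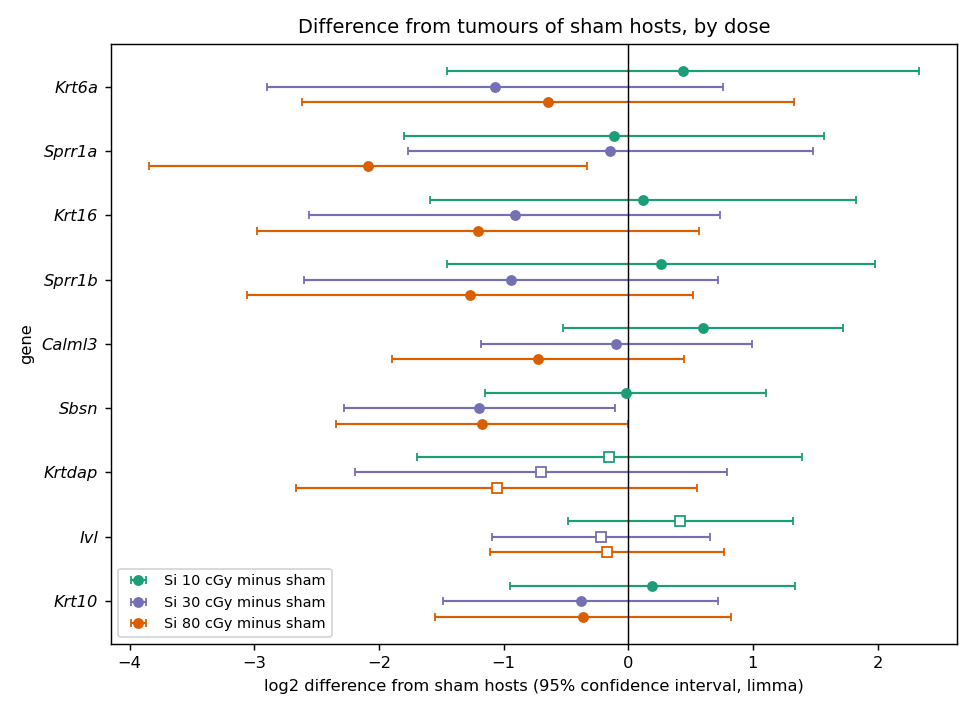
Points give each gene's log2 difference from sham tumours at 10, 30 and 80 cGy and bars the 95% confidence interval from limma; open squares mark Krtdap and Ivl, which did not pass the filter. Most intervals include 0, and those that do not are Sprr1a at 80 cGy (-3.84 to -0.33) and Sbsn at 30 cGy and, at its very edge, 80 cGy, none with an adjusted p under 0.05.

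The other lists gave the same count. Of the cornified envelope genes 10 passed the filter, of the proteases and inhibitors 16, of the other differentiation keratins 5, of the desmosome genes 11, of the lipid barrier genes 10, of the S100 and calmodulin-like genes 5 and of the regulators 26, and none had an adjusted p under 0.05 in any comparison. Of the basal keratinocyte and myoepithelial list 14 were tested and none passed. The same holds for the 6 hair follicle, 9 skeletal muscle, 9 adipocyte and 10 neutrophil genes that were tested, and for the 16 luminal, 7 milk, 10 mesenchymal, 4 sebaceous, 1 melanocyte and 9 proliferation genes.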

How the data were processed

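The values are log2 expression per probe set as the authors deposited them; RMA in the oligo package produced them, per the submitters' processing notes, in versions not given in the sources used here. Of 35556 probe sets, 21218 carried 1 gene symbol in the platform annotation, 1881 several and 12457 none, and each gene was represented by its probe set with the highest mean. Groups were read from the sample titles. Means of the 4 groups were fitted together with limma 3.58.1 (lmFit, eBayes) in R 4.3.3, after the procedure had been tested on simulated data. The p-values were two-sided and adjusted over 12123 genes, or over 18820 for Krtdap and Ivl and for Sprr1a without the 3 leading tumours. All Si hosts means the unweighted mean of the 3 doses. RMA evens out arrays and compresses low levels, so folds of low genes are understated. The number of arrays limits the precision. The lists of genes other than the 9 covered the epidermal groups, basal, luminal, milk, mesenchymal, hair follicle, sebaceous, melanocyte, neutrophil, muscle, adipocyte and proliferation genes. The 9 genes, the lists, the tests and the alternatives were chosen with earlier results of these data known. Genes were named from the 9, the 12 genes most like their mean, the 3 most like each member and the 3 neighbours on each side. In each other list they came from the 3 genes with the highest r with that mean and the 1 with the lowest, and not all of these were described. In the epidermal lists the lowest were Ecm1 (envelope, r = -0.09), Krt23 (keratins, 0.41), Pkp2 (desmosomes, -0.12) and St14 (proteases, 0.195). The others were Smpd1 (lipid barrier, -0.42), S100a9 (S100 genes, 0.33) and Maf (regulators, -0.22). Further genes (Lor, Flg2, Krt1, Sprr2d, Calm4, Krt25, Krt27, Krt28, Krt71, Dct, Adipoq, Trp63, Acta2 and those of the closing section) and the motifs were chosen after their values or the sequences were seen. Replicate numbers did not pair the samples: of 52 pairs of tumours with the same number in different groups, 10 had a correlation of deviations above 0.1, with a median of -0.07.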

Additional observations from a re-analysis of the deposited data

Results flagged for a closer look

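Within each group of 8 to 10 irradiated tumours, a value was picked out where its gap to the nearest other tumour took up more of the group's range than Dixon's criterion allows. Chance flags about 1 in 20 groups where values are normally distributed and the groups independent. Here the genes were correlated, their groups share tumours and a few values lay far above the rest. The count of flags therefore cannot be set against that rate. Of 27 sets of a gene in a group, 9 were picked out, all at the high end, and they came from 4 tumours. In 10 cGy replicate 5 these were Krt10 at 12.48 (next 5.55), Krtdap at 11.79 (next 3.71), Sbsn at 11.55 (next 8.03) and Ivl at 10.51 (next 5.99). In 80 cGy replicate 1 they were Krt16 at 6.48 (next 4.30), Sprr1b at 7.22 (next 5.03) and Krtdap at 3.80 (next 3.10), of which Krtdap stayed under its threshold for high of 5.18. The others were Krt10 at 6.85 in 30 cGy replicate 2 (next 5.68) and Calml3 at 6.68 in 80 cGy replicate 5 (next 5.17). The sham group of 18 was not examined in this way.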

How the results depend on the processing

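None of the 7 tested squamous genes had an adjusted p under 0.05 under any alternative that tested it, and Krtdap and Ivl, tested only with no filter and without the 3 leading tumours, had none there; the lowest was 0.189, for Sprr1a at 80 cGy with array weights, and 0.502 when single tumours were left out. Genes called overall went from 0 to 30 at 80 cGy and 2 among the 4 groups with array weights, to 1 at 80 cGy when only the groups compared were fitted, and, with the replicate number as a block, to 6 for all Si hosts and 1 at 80 cGy. Leaving out 1 tumour gave 0 to 1 genes for all Si hosts (1 without 10 cGy replicate 5 or sham replicate 12) and 0 to 1 at 80 cGy (1 without 80 cGy replicate 7). The count of tumours with 5 or more genes high, 6 in all, was 11 with 1 above the median (2 at 30 cGy and 1 at 80 cGy) and 3 both with 3 above it and above the table's upper quartile (2 sham and 1 at 10 cGy). The median correlation of the 36 pairs was 0.45 by Spearman, 0.56 without the 2 farthest tumours and 0.43 without the 3 leading tumours. Some differences changed sign, and the cause was not tested. Not all of these were small in the main fit: Krt16 was -0.91 at 30 cGy and -0.67 for all Si hosts. Sprr1b for all Si hosts was -0.65, and Krtdap at 30 cGy was -0.70. With array weights these were Krt10 at 10 cGy (-0.062) and Sprr1a at 10 and 30 cGy (0.088 and 0.026). On normal scores they were Krt16 and Calml3 for all Si hosts (0.057 and 0.066), Krt10 and Sprr1b at 10 cGy (-0.21 and -0.37), Krt16 and Calml3 at 30 cGy (0.086 and 0.172) and Krt10 at 80 cGy (0.21). With the replicate block, Krt10, Krt16 and Sprr1b at 10 cGy were -0.26, -0.38 and -0.26. With the first component of unnamed probe sets as a covariate, Sbsn at 10 cGy was 0.091. Against only the 10 sham tumours with code 5, Krt10, Krt16 and Sprr1b at 10 cGy were -0.17, -0.31 and -0.29. Against only the 8 with code 6, all Si hosts gave 0.27 for Krt10, 0.036 for Sprr1b and 0.36 for Calml3, 10 cGy gave 0.14 for Sprr1a and 0.34 for Sbsn, 30 cGy gave 0.067 for Krt10, 0.11 for Sprr1a and 0.34 for Calml3, and 80 cGy gave 0.087 for Krt10. Without the 3 leading tumours, an alternative chosen after seeing the data, all Si hosts gave 0.15 for Calml3, 10 cGy gave -0.23 for Krt10, 30 cGy gave 0.006 for Krt10, 0.44 for Sprr1a and 0.29 for Calml3, 0.004 for Krtdap and 0.131 for Ivl, and 80 cGy gave 0.025 for Krt10 and 0.177 for Ivl. Leaving out single tumours gave ranges across 0 for all Si hosts of -0.45 to 0.10 (Krt10) and -0.23 to 0.18 (Calml3), at 10 cGy of -0.063 to 0.83 (Krt6a), -0.61 to 0.48 (Krt10), -0.63 to 0.48 (Krt16), -0.76 to 0.28 (Sprr1a), -0.48 to 0.65 (Sprr1b) and -0.58 to 0.24 (Sbsn), and at 30 cGy of -0.34 to 0.16 (Sprr1a) and -0.28 to 0.16 (Calml3). With no filter no direction of the 9 genes changed. With a trended and robust prior, arrays centred on their median, tumours of 1 code stem as a random block or only the groups compared, none of the 7 tested genes changed direction, nor did the 3 that passed the stricter filter (Krt6a, Sprr1a and Sbsn). No member has a second probe set, so that alternative could not be run.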

Other observations

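In 8 cases 2 tumours of the same host group carry codes with the same stem, whose meaning the labels do not state. The 2 codes of each case differ only in their ending, L or R, which the labels do not explain either. With the stem as a random block, the estimated correlation within a stem was 0.241, and the main tests used no such block. Sham replicates 8 and 9 share a stem and had 9 and 0 squamous genes high, with Krt6a at 11.05 and 7.15. Sham replicates 11 and 12 also share one and had 4 and 0 high, with Krt6a at 11.21 and 7.30, although Krt5 stood at 13.21 and 12.49 in them. In the other 6 cases no tumour had more than 3 genes high.

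Sham replicate 8, in which no muscle or adipocyte gene was high, had 4 of 10 milk genes high, with the casein gene Csn1s1 at 12.12 and Csn1s2a at 11.02 against medians of 9.90 and 7.26. In sham replicate 3 the same casein genes stood at 7.43 and 4.58, and in 10 cGy replicate 5 at 9.39 and 8.84. Tchh stood at 12.05 in 10 cGy replicate 5, 9.76 in sham replicate 8 and 4.91 in sham replicate 3, the same order over the 3 tumours as Krt10 and Krt1.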
